A study of Mus musculus with 13 samples.

Results

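Bulk RNA sequencing of mouse brain was used to measure the total shift in gene expression when microglial depletion and ischemic stroke were combined, against brains that had neither. The comparison holds 5 of the 13 libraries of the series: 2 from depleted mice after transient middle cerebral artery occlusion (tMCAO_MG_DE, called depleted stroke here) and 3 from undepleted mice after sham surgery (sham_MG_CON, intact sham). They were taken by their titles. All animals are labelled CX3CR1creER/+ :Rosa26iDTR/+, male, and all received tamoxifen, given as 2 doses at 7 to 8 weeks of age, so that the intact sham animals carry the same alleles and drug. After 30 days the depleted animals received diphtheria toxin at 50 ng per g of body weight for 3 days, and the undepleted animals received normal saline. In the occluded animals a nylon suture blocked the artery for 60 min and was then withdrawn for reperfusion. The other 8 libraries, 4 depleted sham (sham_MG_DE) and 4 intact stroke (tMCAO_MG_CON), are used to estimate the spread and to give the values of each insult alone.

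The labels limit these groups as models in several ways. The Cre is driven from the Cx3cr1 locus, which microglia and other mononuclear phagocytes use, so the toxin receptor is not restricted to microglia by the allele alone. The surgery text gives an age of 6 to 8 weeks, which does not match tamoxifen at 7 to 8 weeks with a wait of 30 days. The labels number the Rosa locus differently from library to library, and this was read as a single genotype. The tissue is given as brain, and neither the hours since occlusion nor the side or region sampled is stated in the labels. Each library has its own animal number.

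Blocking the middle cerebral artery starves part of the striatum and cortex of blood, and the injured tissue then goes through stress responses in neurons, vessel leakage and inflammation. Microglia are the resident macrophages of the brain and depend on signals through the receptor Csf1r. Astrocytes around an injury become reactive, with more intermediate filament protein and secreted acute phase proteins. In the title of the study, microglia supply an antagonist of the interleukin-1 receptor, astrocytes supply the chemokine CXCL1, and neutrophils are the cells recruited.

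Table totals were 16292600 to 22154317 fragments per library, with 19331202, 17162945 and 18554698 in intact sham and 19581223 and 19675796 in depleted stroke. Levels are given as CPM (counts scaled to a common library size, here by trimmed mean of M-values), changes as log2 of depleted stroke over intact sham ± standard error (SE), and p-values as Benjamini-Hochberg adjusted values of edgeR's quasi-likelihood test over 16940 tested genes. A gene is called when that adjusted p is under 0.05. The SE was derived as the size of the log2 change divided by the square root of that test's F value. For genes near 0 in intact sham it is not a direct error of the fold. CPM is not divided by gene length, so levels are compared between libraries and not between genes. Mitochondrial transcripts took 9.58% to 9.85% of the fragments in intact sham and 8.64% and 8.28% in depleted stroke, and the 6 depleted libraries together spanned 7.84% to 8.74% against 9.03% to 9.86% in the 7 undepleted ones; the part of this in the results was not tested. Intact sham 2 stood apart in blood cell transcripts, with S100a8 at 8.49 CPM against 0.376 and 0.452 CPM in intact sham 1 and 3. The title of intact stroke 4 names the occlusion while another of its labels names sham surgery, and the title was followed. Depleted sham 3 stood apart in the same way as intact sham 2, with S100a8 at 0.432, 0.364, 8.11 and 0.228 CPM in depleted sham 1 to 4. Counts were therefore also made without intact sham 2, depleted sham 3 and intact stroke 4, called the 3 doubted libraries below. Because depleted stroke has 2 libraries, a fit without either leaves 1, which is then assumed to vary like the other groups, and 2 libraries against 3 cannot reach an exact permutation p below 0.1. Nothing in the labels says that the animals were from separate litters or surgery days, so p-values measure the spread between these animals only.

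**Figure D1:**
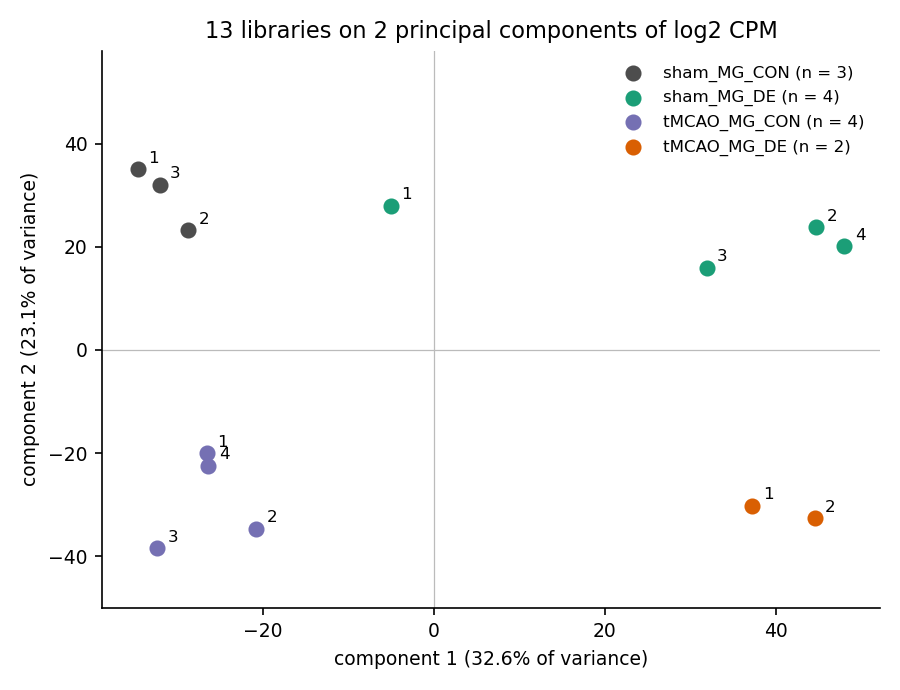
Each point is 1 of the 13 libraries on the leading 2 principal components of log2 CPM, which hold 32.6% and 23.1% of the variance; colours and marks are the 4 groups. The 2 libraries with both insults lie lower right and the 3 intact sham libraries upper left; depleted sham 1 lies apart from its group on the horizontal axis.

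The libraries with both insults differed from intact sham on both leading components. On the first, depleted stroke sat at 37.2 and 44.5 and intact sham between -34.6 and -28.7, and on the second at -30.2 and -32.7 against 23.3 to 35.1. Depleted sham shared the high side of the first component, at 31.9 to 48.0 in 3 libraries and at -5.04 in depleted sham 1, and intact stroke shared the low side of the second. Between the 2 depleted stroke libraries the median gene differed by 0.139 on the log2 scale, against 0.130 to 0.162 within intact sham. In this pair 244 genes (1.65%) differed by more than 2-fold, against 1.73% to 2.56% within intact sham. Both measures cover only genes with a mean of at least 1 CPM in the pair compared, 14824 in depleted stroke, and leave out lower genes. Slc1a2, the main glutamate transporter of astrocytes, was among those 244, at 511 and 2207 CPM.

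Of 16940 tested genes, 5370 (31.7%) were called between depleted stroke and intact sham, 2788 higher (16.5%) and 2582 lower (15.2%). Most of these changes were small. The median size was 0.636 on the log2 scale, and 2413 called genes (44.93%) changed by under 1.5-fold. Changes of 2-fold or more were found in 947 genes that rose (5.59% of those tested) and 555 that fell (3.28%), and of 4-fold or more in 424 and 104. The 2 groups of libraries did not overlap in 5359 of the 5370 called genes (99.8%). Over all tested genes, called or not, depleted stroke lay wholly above intact sham in 5401 (31.9%) and wholly below it in 4898 (28.9%).

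The count rests on both depleted stroke libraries. Without depleted stroke 1 the call was made for 3104 genes (1627 higher, 1477 lower), and without depleted stroke 2 for 2324 (1246 higher, 1078 lower). Without the 3 doubted libraries 4039 genes were called, 3818 of them among the 5370 and in the same direction. On log2(FPKM + 1) with limma 62.68% of the called genes were higher, against 51.92% in the edgeR fit.

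**Figure D2:**
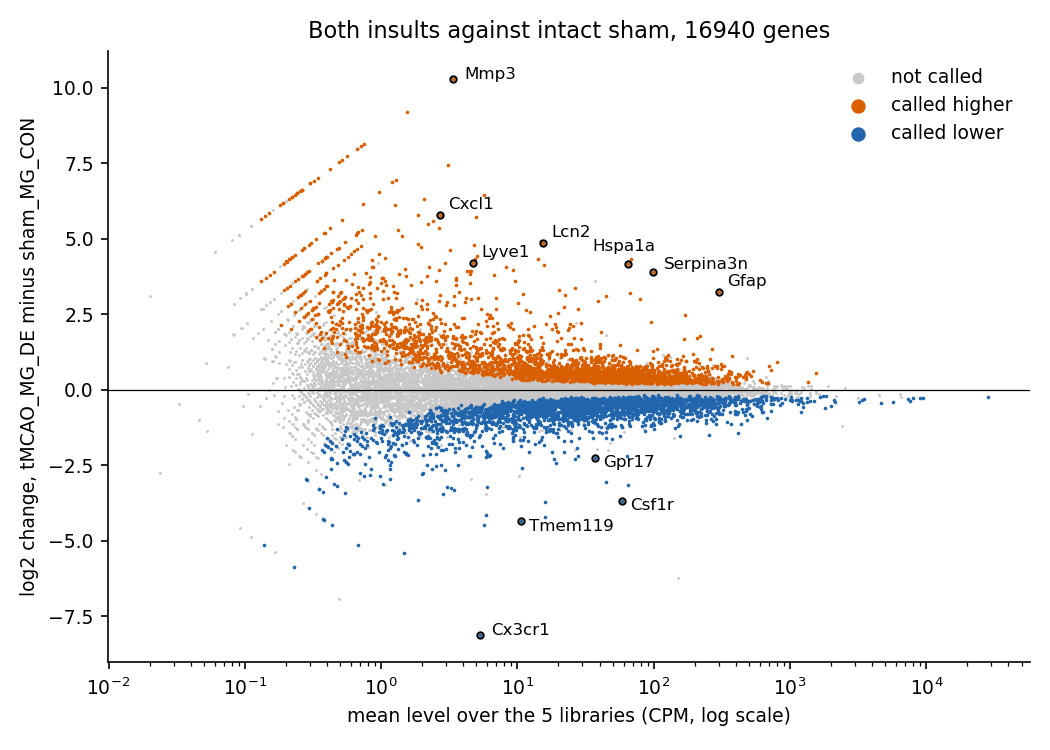
Each point is 1 of 16940 tested genes, with its mean CPM on a log axis and its log2 change of depleted stroke over intact sham; orange points are called higher, blue points called lower and grey points are not called. Hspa1a, Gfap and Serpina3n are labelled among the rises and Csf1r and Gpr17 among the falls; the heights of genes at or near 0 in intact sham, such as Mmp3, depend on the prior count.

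With the same 3 intact sham libraries as control, stroke alone gave 1430 called genes (8.44%, of them 870 higher, 5.14%, and 560 lower, 3.31%), and depletion alone gave 1921 (11.3%, of them 1161 higher, 6.85%, and 760 lower, 4.49%). These comparisons share their controls with the combined one, so their values are set side by side and nothing is read from their likeness. Stroke alone gave 666, 564 and 935 without intact sham 1, intact sham 3 or intact stroke 3. Depletion alone gave 611, 821 and 591 without intact sham 1, 2 or 3 and 3725, 747, 1104 and 670 without depleted sham 1, 2, 3 or 4. Against the occluded brains that kept their microglia, depleted stroke differed in 3155 genes (18.6%, with 9.36% higher and 9.26% lower), and against the depleted sham brains in 2106 (12.4%, with 6.59% higher and 5.84% lower). Without depleted stroke 1 or 2 these counts were 1097 and 346 for the first and 523 and 453 for the second.

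**Figure D3:**
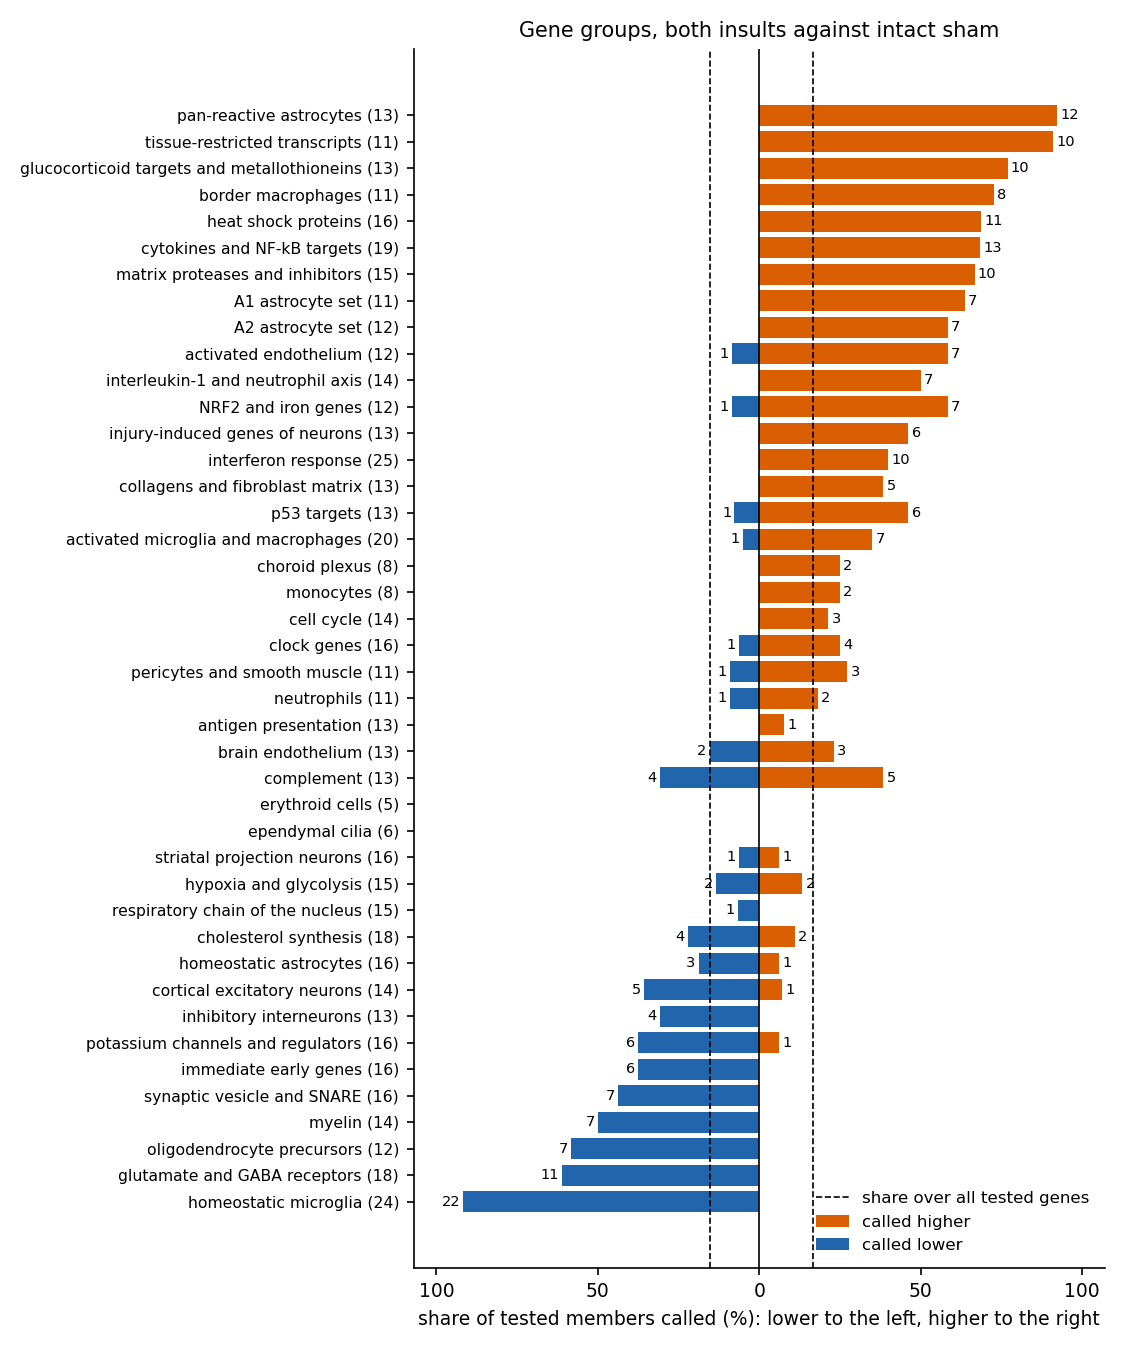
For each gene list with at least 5 tested members, the percentage of tested members called higher (orange, to the right) or lower (blue, to the left) in depleted stroke against intact sham. Dashed lines mark the shares over all 16940 tested genes, 16.5% higher and 15.2% lower; reactive astrocyte, matrix protease and heat shock lists reach far past the right line and the microglial list far past the left one.

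The gene lists are described below by how many tested members were called and by their median log2 change, read against 16.5% higher, 15.2% lower and a median of 0.02 over all tested genes. Names in round brackets after a gene, where given, are the single libraries or the alternative fits whose removal or use ended its call, with the adjusted p then reached. The fit with a replicate block is not among them, since the shared numbers do not pair the libraries, and its losses are counted once at the end.

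Homeostatic microglial genes fell together. Of 24 tested members 22 were called lower and none higher, with a median log2 change of -2.34. Csf1r, the receptor for the growth factors on which microglia depend, stood at 92.0, 93.4 and 92.8 CPM in intact sham and 6.08 and 8.51 CPM in depleted stroke, a log2 change of -3.67 ± 0.32 (adjusted p = 4.3e-05). Both depleted stroke libraries lay below every intact sham library. Tmem119, a surface protein used to mark microglia, went from 18.6, 16.3 and 16.7 CPM to 0.804 and 0.861 CPM (-4.36 ± 0.52, adjusted p = 0.00023). C1qa, a chain of the complement starter C1q, went from 34.7, 38.8 and 28.7 CPM to 9.39 and 11.5 CPM (-1.70 ± 0.19, adjusted p = 0.00015). Tmem119 kept the smallest part of its intact sham level of these 3 genes and C1qa the largest.

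Microglial receptors were among the 12 largest falls of genes with at least 1 CPM in intact sham. P2ry12, through which microglial processes sense nucleotides, read 33.2, 10.1 and 32.8 CPM in intact sham and 1.61 and 2.23 CPM in depleted stroke (-3.72 ± 0.59, adjusted p = 0.0009). P2ry13 changed by -4.15 ± 0.50 and Gpr34, a lysophosphatidylserine receptor, by -4.49 ± 0.66 on the log2 scale. Selplg, the ligand of P-selectin, changed by -4.19, the lectin Siglech by -3.46 and the cysteine protease gene Ctss by -3.05. In all 6 genes the groups did not overlap. Adora3, an adenosine receptor that shares exonic sequence with Tmigd3 on the same strand, had 21, 19 and 19 fragments in intact sham and 0 and 1 in depleted stroke, a count ratio of 44.1 (95% interval 7.61 to 1771), intact sham over depleted stroke, by counting error only. Fgd2, a Cdc42 exchange factor, fell from 5.79, 5.08 and 5.31 CPM to 0.352 and 0.709 CPM (-3.33 ± 0.44). Cx3cr1, the fractalkine receptor whose locus drives the Cre, had 21, 404 and 21 fragments in intact sham and 0 and 1 in depleted stroke. Intact sham 2 held most of these fragments, and intact sham 1 and 3 lay within the range of depleted sham (1.41, 1.23, 0.305 and 0 CPM against 1.13, 24.2 and 1.19 CPM). In other fits calls ended for Cx3cr1 (depleted stroke 1 or 2, the 5-library fit, limma, adjusted p 0.0526 to 0.14).

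The members outside the falling majority were Sparc, a matricellular protein gene also used by endothelium and astrocytes, at 139, 209 and 161.9 CPM against 207 and 211 CPM (adjusted p = 0.21), and the nucleotide receptor P2ry6, at 2.63, 2.45 and 1.52 CPM against 1.21 and 1.37 CPM (adjusted p = 0.16). Summed over the list, intact sham held 732 to 808 CPM and depleted stroke 332 and 355 CPM. Depleted sham held 276 to 374 CPM and intact stroke 824 to 1051 CPM. Sparc is part of these sums and supplied 207 and 211 CPM of them in depleted stroke, so the other members together fell by more than the sums show. In bulk tissue fewer microglia and less RNA per microglia cannot be told apart. Without depleted stroke 1 and 2 the count of lower members was 19 and 21.

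Genes of border macrophages, which lie along vessels and in the meninges, moved the other way. Of 11 tested members 8 were called higher and none lower, with a median log2 change of 2.00. Lyve1, a hyaluronan receptor, stood at 0.644, 0.479 and 0.621 CPM in intact sham and 10.1 and 11.7 CPM in depleted stroke (4.21 ± 0.44, adjusted p = 0.00014). Siglec1, a sialic acid receptor, rose from 0.161, 0.778 and 0.226 CPM to 5.37 and 6.84 CPM (3.98 ± 0.53), and the clotting transglutaminase subunit F13a1 from 1.56, 2.75 and 2.32 CPM to 10.4 and 14.2 CPM (2.48 ± 0.27). The haemoglobin scavenger receptor Cd163 rose from 0.536, 0.658 and 0.395 CPM to 3.26 and 5.16 CPM (2.98 ± 0.41). Every depleted stroke value of these 4 genes exceeded every intact sham value. Without depleted stroke 2 the count was 6.

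For Lyve1 the single insults gave 2.46 for stroke alone and 3.33 for depletion alone against the same controls, beside 4.21 for both, and for Cd163 they gave 1.72 and 2.98 beside 2.98. Between depleted and undepleted occluded brains Lyve1 differed by 1.75 ± 0.34 (adjusted p = 0.0059).

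Genes of activated microglia and macrophages rose in part. Of 20 tested members 7 were called higher and 1 lower. Msr1, a scavenger receptor, rose from 0.268, 0.180 and 0.169 CPM to 2.71 and 4.15 CPM (4.01 ± 0.62, adjusted p = 0.00081), Lgals3, a galectin, from 0.215, 0.299 and 0.226 CPM to 2.86 and 2.53 CPM (3.42 ± 0.52), and Spp1, which encodes osteopontin and shares an exon with a gene model on its strand, from 4.99, 8.79 and 6.38 CPM to 34.7 and 54.4 CPM (2.73 ± 0.38). The lysosomal glycoprotein gene Cd68 rose by 0.76 ± 0.17. In stroke alone these changes were 5.90, 4.61, 4.56 and 1.75 against the same controls. Depleted stroke was lower than intact stroke for each of the 4, with log2 differences of -1.89 ± 0.43 for Msr1 (adjusted p = 0.011), -1.19 ± 0.38 for Lgals3 (0.0469), -1.83 ± 0.37 for Spp1 (0.007) and -0.99 ± 0.16 for Cd68 (0.0028). The adaptor gene Tyrobp was the member called lower, at 6.76, 5.38 and 5.54 CPM against 2.46 and 3.19 CPM (-1.06 ± 0.29, adjusted p = 0.016); that call ended without depleted stroke 1 (0.12), depleted stroke 2 (0.0532) or intact sham 1. Without depleted stroke 1 the list had 4 members called higher and none lower, and Cd68 was not among them (adjusted p = 0.058). Without depleted stroke 2 the counts were 5 and 0.

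Markers of blood leukocytes were low. Of 8 tested monocyte genes 2 were called higher: the glutathione transferase gene Mgst1, from 2.95, 3.35 and 3.11 CPM to 8.94 and 11.2 CPM (1.68 ± 0.21, adjusted p = 0.00027), and the arginase gene Arg1, from 0.161, 0.239 and 0.0565 CPM to 0.703 and 2.53 CPM, whose call ended without depleted stroke 2 (adjusted p = 0.14). The monocyte count was 1 without depleted stroke 2, and 4 without intact sham 2 or without the 3 doubted libraries. The defining monocyte genes Ccr2 and Chil3 were at 0.552 and 0.405 and 1.51 and 0.608 CPM in depleted stroke, with adjusted p of 0.75 and 0.28, and Ly6c2 was removed by the filter on low counts. Of 11 tested neutrophil genes 2 were called higher and 1 lower. The lower member, Csf3r, is the receptor for granulocyte colony-stimulating factor and is carried by microglia as well; it went from 7.99, 10.7 and 9.43 CPM to 1.61 and 0.405 CPM (-3.21 ± 0.57, adjusted p = 0.0017). The higher members were the gelatinase gene Mmp9 and the formyl peptide receptor gene Fpr2, and both calls were fragile: Mmp9 (intact sham 2 or 3, depleted stroke 1 or 2, the 3 doubted libraries, adjusted p 0.06 to 0.14), Fpr2 (intact sham 1 or 3, depleted stroke 1 or 2, adjusted p 0.075 to 0.13). S100a8 read 0.376, 8.49 and 0.452 CPM in intact sham and 1.76 and 0.557 CPM in depleted stroke, and S100a9 read 0.429, 15.6 and 0.791 CPM and 6.18 and 0.962 CPM. The summed neutrophil list was 12.02 to 49.2 CPM in intact sham and 10.6 and 23.4 CPM in depleted stroke, with intact sham 2 highest. S100a9 had an adjusted p of 0.77 with all libraries, and without the 3 doubted libraries it was called higher, by 2.54 (adjusted p = 0.0451). Of 8 lymphocyte genes found, 2 passed the filter, and Cd4 was called, at 0.376, 0.658 and 0.621 CPM against 2.31 and 2.38 CPM (2.08 ± 0.36). The other, the T cell receptor gene Trac, was not called, with a log2 change of 0.11. No erythroid gene (5 tested) and no ependymal gene (6 tested) was called, and 2 of 8 choroid plexus genes were, the potassium channel subunit gene Kcne2 and the bicarbonate transporter gene Slc4a5, with Ttr, which encodes the transport protein transthyretin, at 3.70, 6.70 and 0.565 CPM against 1.004 and 0.962 CPM. Those 2 calls ended for Kcne2 (intact sham 1 or 3, depleted stroke 2, adjusted p 0.056 to 0.094), Slc4a5 (intact sham 1 or 3, intact stroke 2 or 4, depleted stroke 1 or 2, limma, adjusted p 0.0506 to 0.24). None of the erythroid and ependymal genes reached an unadjusted p under 0.05 in edgeR (0 of 5 and 0 of 6), and DESeq2 called 0 of either; without depleted sham 1, 1 ependymal gene was called.

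The axis named in the title of the study was measured through 14 genes that passed the filter, of which 7 were called higher and none lower (6 without depleted stroke 1, 7 without depleted stroke 2). The median log2 change was 2.29, or 2.06 with genes at or near 0 in intact sham set at their bounds. Among the ligands, Il1rn, which encodes the interleukin-1 receptor antagonist and lies on chromosome 2 from 24336853 to 24351494 (GRCm38, GENCODE vM21), read 0, 0.0598 and 0.169 CPM in intact sham and 0.452 and 0.152 CPM in depleted stroke (adjusted p = 0.25). In intact stroke it read 0.993, 2.69, 5.12 and 2.33 CPM, and depleted stroke differed from intact stroke by -3.17 ± 0.81 (adjusted p = 0.019). The agonist genes Il1a and Il1b read 0.603 and 0.101 CPM and 0.854 and 0.253 CPM in depleted stroke against 0.644, 0.538 and 0.678 CPM and 0.161, 0.479 and 0.169 CPM in intact sham, and neither was called (adjusted p = 0.34 and 0.19). In both genes depleted stroke 1 and 2 differed from each other by more than 3-fold.

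Among the receptors, Il1r1, the signalling receptor of interleukin-1, rose from 5.63, 9.81 and 8.42 CPM to 20.2 and 18.9 CPM (1.30 ± 0.30, adjusted p = 0.0065), with no overlap. The decoy receptor gene Il1r2 rose from 0.107, 0.299 and 0.169 CPM to 1.46 and 0.557 CPM, a call that ended without depleted stroke 1 (adjusted p = 0.16). The accessory chain gene Il1rap read 58.5, 71.7 and 59.98 CPM against 55.5 and 57.2 CPM (adjusted p = 0.23). Of the neutrophil chemokines, Cxcl1, on chromosome 5 from 90891241 to 90893115, read 0.215, 0 and 0.113 CPM in intact sham and 7.28 and 5.98 CPM in depleted stroke (5.80 ± 0.78, adjusted p = 0.0004). Its single-insult libraries read 0.552, 2.21, 2.9998 and 0.630 CPM in intact stroke 1 to 4 and 1.78, 3.41, 2.93 and 2.74 CPM in depleted sham 1 to 4. Both depleted stroke values exceeded the 3 intact sham values, and depleted stroke exceeded intact stroke by 2.06 ± 0.51 (adjusted p = 0.016). Cxcl5 had 1, 0 and 0 fragments in intact sham and 12 and 7 in depleted stroke, a count ratio of 25.4 (95% interval 4.04 to 1056) by counting error only. Cxcl2 read 0.268, 0.538 and 0.0565 CPM against 1.61 and 1.06 CPM (adjusted p = 0.073). Their receptor gene Cxcr2 had no fragment in intact sham and 17 and 3 in depleted stroke, at least 2.96-fold higher against a floor of 3 counts per library, with an adjusted p of 0.0506.

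Vessel adhesion genes of the axis rose. Icam1, the endothelial ligand of leukocyte integrins, rose from 1.61, 4.01 and 1.58 CPM to 13.6 and 11.5 CPM (2.40 ± 0.36, adjusted p = 0.00067). The selectin genes Sele and Selp had 0, 2 and 0 and 0, 0 and 0 fragments in the intact sham libraries and 19 and 26 and 23 and 11 in depleted stroke, a count ratio of 30.1 (95% interval 7.86 to 256) for Sele and at least 5.04-fold for Selp. Adjusted p was 0.0021 and 0.0088, and the call ended for Selp (limma, adjusted p 0.056 to 0.28). The granule enzyme gene Mpo read 0, 0.718 and 0 CPM against 0.552 and 0.810 CPM (adjusted p = 0.39), and Ly6g did not pass the filter.

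Cytokine genes and targets of the transcription factor NF-kB rose. Of 19 tested members 13 were called higher and none lower (10 without depleted stroke 1, 10 without depleted stroke 2, 11 without the 3 doubted libraries), with a median log2 change of 1.75. Ptgs2, the inducible prostaglandin synthase, rose from 14.1, 13.3 and 12.9 CPM to 52.2 and 37.1 CPM (1.73 ± 0.19, adjusted p = 0.00015). Socs3, a feedback inhibitor of cytokine signalling, rose from 2.84, 5.38 and 4.12 CPM to 26.3 and 23.1 CPM (2.59 ± 0.34, adjusted p = 0.00037). The monocyte chemoattractant gene Ccl2 read 0.215, 0 and 0.226 CPM in intact sham and 5.32 and 7.44 CPM in depleted stroke (5.35 ± 0.71, adjusted p = 0.00039), and the interleukin-6 family cytokine gene Lif 0.322, 0.419 and 0.339 CPM and 3.97 and 4.71 CPM (3.57 ± 0.54, adjusted p = 0.00073). None of these 4 genes overlapped between the groups. Nfkbia, the inhibitor that NF-kB itself induces, rose from 14.4, 16.2 and 14.2 CPM to 33.4 and 34.5 CPM (1.19 ± 0.20, adjusted p = 0.0012).

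The members that were not called included cytokines of activated microglia. Ccl3 read 0.268, 0.0598 and 0.169 CPM in intact sham, 2.26, 3.40, 5.29 and 1.89 CPM in intact stroke and 0.151 and 0.405 CPM in depleted stroke, and depleted stroke differed from intact stroke by -3.50 ± 0.62 (adjusted p = 0.0037). Ccl4 read 0.502 and 1.06 CPM in depleted stroke against 0.161, 0.180 and 0.226 CPM (adjusted p = 0.061), and Tnf had 1, 0 and 0 fragments in intact sham and 4 and 5 in depleted stroke (adjusted p = 0.065). Cxcl16, Tnfaip3 and Relb had adjusted p of 0.88, 0.78 and 0.062.

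A spelling of the NF-kB site, GGGA and TTTCC with any 1 base between them, was searched on both strands of the 250 bases before each RefSeq start (GRCm38.p6). It was found for 4 of the 10 called members with a promoter in the table, against 0.41% of 27025 genes. Printed for the 3 with the smallest adjusted p are stretches around the match, in capitals, to show the letters; a match is not a measured site.
Nfkbia, chr12:55492648-55492696, minus strand: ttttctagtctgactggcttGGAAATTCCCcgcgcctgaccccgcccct
Nfkb2, chr19:46305685-46305734, plus strand: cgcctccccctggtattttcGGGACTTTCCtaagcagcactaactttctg
Il6, chr5:30013050-30013099, plus strand: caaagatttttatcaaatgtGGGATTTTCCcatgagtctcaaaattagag
Nfkb2, an NF-kB subunit precursor, rose by 1.40 ± 0.32 and Il6, the interleukin-6 gene, from 0.268, 0.0598 and 0 CPM to 0.854 and 0.962 CPM. Both calls were fragile: Nfkb2 (depleted stroke 2, adjusted p 0.057), Il6 (intact sham 2 or 3, depleted sham 4, intact stroke 2, depleted stroke 1 or 2, limma, the 3 doubted libraries, adjusted p 0.0505 to 0.15).

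Interferon response genes rose in part. Of 25 tested members 10 were called higher and none lower, with a median log2 change of 0.77, and the count was 5 without depleted stroke 1 and 1 without depleted stroke 2. Gbp3, a guanylate-binding protein, rose from 4.56, 7.24 and 3.78 CPM to 13.5 and 22.2 CPM (1.78 ± 0.37, adjusted p = 0.0037). Ifi27l2a, an interferon-induced membrane protein, rose from 0.536, 0.299 and 0.621 CPM to 1.86 and 1.92 CPM (1.94 ± 0.42, adjusted p = 0.0048) and kept its call in every setting run. Ifitm3, a restriction factor for virus entry, rose from 5.58, 8.97 and 3.39 CPM to 19.5 and 22.4 CPM (1.81 ± 0.43). Depleted stroke 2 was the higher of the pair for these 3 genes. Calls ended for Gbp3 (depleted stroke 2, adjusted p 0.056), Ifitm3 (depleted stroke 2, adjusted p 0.0519). Over the list, the count without any other single library lay between 4 and 12, with 6 without intact sham 1 and 4 without intact sham 3. The summed level was 170 to 204 CPM in intact sham and 256 and 319 CPM in depleted stroke.

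A spelling of the interferon-stimulated response element, GAAA and GAAA with any 2 bases between them, was searched on both strands of the same window. It was found in the promoters of 3 of the 7 called members with an entry, against 3.46% of genes. Of all 17 members with an entry, called or not, 8 had it, so the match was not particular to the called ones. The 3 called members are printed, with the matches in capitals.
Gbp3, chr3:142559979-142560034, plus strand: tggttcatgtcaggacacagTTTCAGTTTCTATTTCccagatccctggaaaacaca
Rsad2, chr12:26456543-26456592, minus strand: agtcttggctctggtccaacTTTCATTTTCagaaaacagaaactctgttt
Ifit3, chr19:34583353-34583436, plus strand: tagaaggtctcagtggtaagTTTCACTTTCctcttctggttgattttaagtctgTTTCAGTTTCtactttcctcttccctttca
Rsad2 and Ifit3, the genes of viperin and of an interferon-induced RNA-binding protein, read 1.13, 1.26 and 1.19 and 9.07, 10.6 and 6.89 CPM in intact sham and 3.67 and 4.41 and 14.3 and 25.4 CPM in depleted stroke. Their calls ended under many settings: Rsad2 (intact sham 1, 2 or 3, depleted stroke 1 or 2, limma, adjusted p 0.0549 to 0.12), Ifit3 (intact sham 1 or 3, depleted stroke 2, adjusted p 0.065 to 0.31).

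Of 13 antigen presentation genes 1 was called, the peptide transporter gene Tap1, from 2.09, 4.07 and 2.09 CPM to 6.83 and 7.44 CPM (1.38 ± 0.27, adjusted p = 0.0027). The count was 4 without intact sham 2, 3 without the 3 doubted libraries or by DESeq2, and 2 by limma and in the fit of these 5 libraries alone. Complement genes split, with 5 of 13 called higher and 4 lower. The lower members were the 3 C1q chain genes, C1qc changing by -1.35 ± 0.18, and the integrin gene Itgam (-1.29 ± 0.33). The C1q genes are also on the microglial list. C4b, which encodes complement C4 and has a close copy in the genome so that its level is uncertain, rose from 7.30, 17.3 and 8.70 CPM to 85.1 and 104 CPM (3.10 ± 0.30, adjusted p = 9.7e-05). Serping1, the inhibitor of C1, rose from 2.25, 3.11 and 2.26 CPM to 7.38 and 11.6 CPM (1.91 ± 0.25, adjusted p = 0.00037). Also higher were C3, the central complement protein (2.35 ± 0.62), and C1ra (0.68 ± 0.20). Calls ended for C3 (depleted stroke 2, adjusted p 0.062), C1ra (intact sham 1, depleted stroke 2, the 3 doubted libraries, adjusted p 0.065 to 0.18), Itgam (depleted stroke 1 or 2, adjusted p 0.063 to 0.071). In stroke alone C1qc changed by 0.84 and C4b by 3.03 against the same controls. Without depleted stroke 1 the complement counts were 4 and 3, and without depleted stroke 2 they were 2 and 3. Without intact sham 1 the higher count was 3.

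Genes of reactive astrocytes rose. Of 13 genes shared by reactive astrocytes after several kinds of injury (pan-reactive), 12 were called higher and none lower, in every fit that left out a library, with a median log2 change of 3.15. Gfap, the astrocyte intermediate filament, on chromosome 11 from 102887336 to 102900912, stood at 51.0, 91.4 and 63.4 CPM in intact sham and 646 and 648 CPM in depleted stroke (3.24 ± 0.22, adjusted p = 3.8e-06). Serpina3n, a secreted protease inhibitor, rose from 11.6, 16.5 and 16.7 CPM to 203 and 244 CPM (3.90 ± 0.27, adjusted p = 3.8e-06). Osmr, the oncostatin M receptor, rose from 4.13, 6.64 and 5.31 CPM to 52.1 and 42.7 CPM (3.15 ± 0.22, adjusted p = 3.8e-06). The lowest depleted stroke value of each of the 3 was over 6 times the highest intact sham value. Lcn2, which encodes the iron-trafficking protein lipocalin 2, rose from 0.376, 2.09 and 1.36 CPM to 42.7 and 30.5 CPM (4.86 ± 0.67), and the small heat shock gene Hspb1 from 3.86, 3.29 and 3.73 CPM to 16.4 and 17.6 CPM (2.22 ± 0.22). S1pr3, a sphingosine 1-phosphate receptor, was the member without a call, at 12.8, 11.01 and 10.8 CPM against 12.1 and 8.91 CPM (adjusted p = 0.7). Summed, the list went from 114 to 184 CPM in intact sham to 1108 and 1136 CPM in depleted stroke.

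Beside these combined values, stroke alone gave 3.63 for Gfap, 3.85 for Serpina3n and 3.03 for Osmr against the same controls, and depletion alone gave 1.14, 0.53 and 0.54. Depleted and intact stroke differed in Gfap by -0.39 ± 0.20 (adjusted p = 0.19), in Serpina3n by 0.05 ± 0.24 (0.9) and in Osmr by 0.11 ± 0.19 (0.71). A p above the threshold does not show that these levels are alike.

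**Figure D4:**
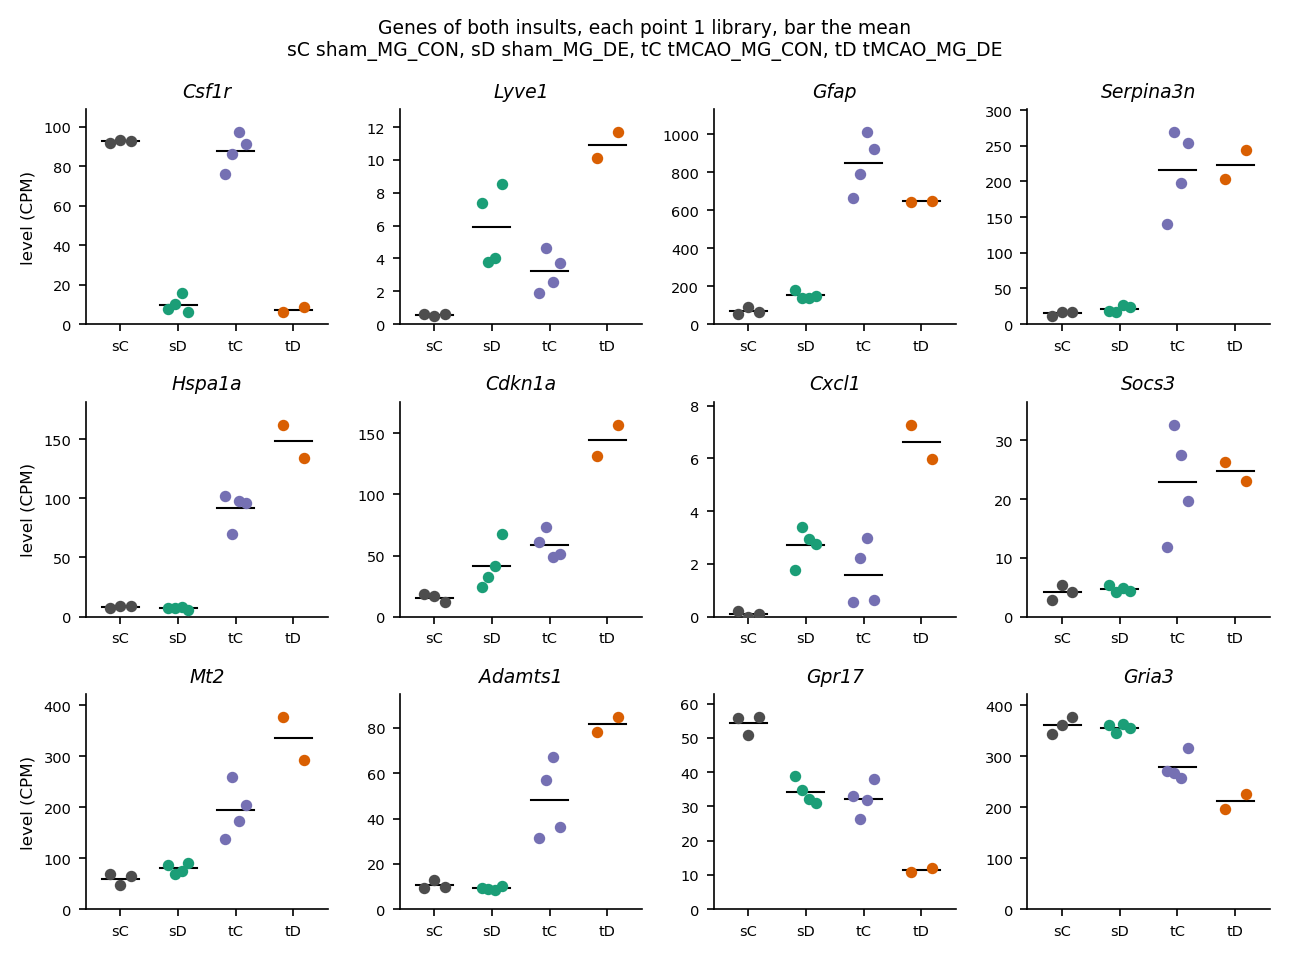
Per-library CPM of 12 genes in the 4 groups (sC, intact sham; sD, depleted sham; tC, intact stroke; tD, depleted stroke); each point is a library and each line a group mean, with the axis starting at 0. Csf1r is low in both depleted groups, Gfap, Serpina3n and Hspa1a are high in both stroke groups, and Cdkn1a, Mt2 and Adamts1 are highest in tD.

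Of the set that marks astrocytes after inflammatory stimulation (A1), 7 of 11 genes were called higher, and of the set described after ischemia (A2), 7 of 12. Fkbp5, an A1 member that is also a glucocorticoid target, rose from 28.4, 48.6 and 36.3 CPM to 167.5 and 194 CPM (2.26 ± 0.39, adjusted p = 0.0015). Iigp1, an interferon-inducible GTPase, read 1.23, 2.63 and 1.52 CPM in intact sham and 8.04 and 21.2 CPM in depleted stroke, and Amigo2, an adhesion molecule, 7.14, 7.42 and 5.70 CPM and 15.02 and 19.6 CPM. The A1 count was 5 without depleted stroke 1 and 3 without depleted stroke 2, and calls ended for Iigp1 (depleted stroke 2, adjusted p 0.058), Amigo2 (depleted stroke 2, adjusted p 0.055). The A2 count was 7 in both of those fits. In A2, Tgm1, a transglutaminase, rose from 0.107, 0 and 0.339 CPM to 15.1 and 12.7 CPM (6.47 ± 1.07, adjusted p = 0.0012), and the membrane protein gene Cd109 from 0.483, 0.658 and 0.395 CPM to 3.52 and 4.0002 CPM (2.86 ± 0.42, adjusted p = 0.00057). The bile acid and steroid sulfate transporter gene Slc10a6 had no fragment in the 3 intact sham libraries and 63 and 91 in depleted stroke, at least 22.9-fold higher (adjusted p = 0.00043).

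Of 16 genes of resting astrocytes 3 were called lower and 1 higher, near the background. The gap junction gene Gja1 read 161.6, 142.3 and 145.8 CPM in intact sham and 91.7 and 96.8 CPM in depleted stroke (-0.67 ± 0.15), and the GABA transporter gene Slc6a11 168.6, 167 and 166.5 CPM and 129 and 108 CPM (-0.50 ± 0.12). The bicarbonate cotransporter gene Slc4a4 changed by -0.32 ± 0.10 and the folate enzyme gene Aldh1l1 by 0.35 ± 0.11. Calls ended for Gja1 (depleted stroke 1, adjusted p 0.0512), Slc6a11 (depleted stroke 2, adjusted p 0.099), Slc4a4 (intact sham 1 or 3, depleted stroke 1 or 2, limma, the 3 doubted libraries, adjusted p 0.059 to 0.16), Aldh1l1 (intact sham 1 or 3, depleted stroke 1, the 3 doubted libraries, adjusted p 0.056 to 0.27). The counts were 1 lower and 0 higher without depleted stroke 1, and 2 lower and 1 higher without depleted stroke 2.

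Heat shock genes rose, and Hspa1a, Hspa1b and Hspa1l had the smallest p-values of all 16940 genes. Of 16 tested members 11 were called higher and none lower (10 and 9 without depleted stroke 1 and 2), with a median log2 change of 0.89. Hspa1a and Hspa1b, neighbouring and nearly identical genes of the inducible HSP70 chaperone whose fragments the counting could split between them, stood at 7.03, 8.91 and 8.87 CPM and 5.85, 8.67 and 8.98 CPM in intact sham and at 162.3 and 134 CPM and 173 and 145.6 CPM in depleted stroke. Hspa1a, on chromosome 17 from 34969190 to 34972156, changed by 4.17 ± 0.18 (adjusted p = 5.8e-08) and Hspa1b by 4.35 ± 0.25 (adjusted p = 1.2e-06). Both depleted stroke libraries exceeded intact sham more than 14-fold in each gene. Hspa1l, the related gene beside them, changed by 4.14 ± 0.26. The mitochondrial chaperonin genes Hspd1 and Hspe1 rose from 116, 106.6 and 116 CPM to 232 and 217 CPM (0.99 ± 0.13, adjusted p = 0.00038) and from 35.6, 25.1 and 25.2 CPM to 63.8 and 52.0 CPM (1.01 ± 0.15, adjusted p = 0.00079). The members not called were the constitutive Hspa8 (adjusted p = 0.85), the endoplasmic reticulum chaperone gene Hspa5 (0.69), Serpinh1 (0.26), Cryab (0.069) and Hspa4l (0.2). For Hspa1a the single insults gave 3.47 for stroke alone and -0.20 for depletion alone, and depleted stroke exceeded intact stroke by 0.70 ± 0.15 (adjusted p = 0.0087).

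Hspd1 and Hspe1 start from the same stretch of chromosome 1 on opposite strands. Within it a spelling of the heat shock element, GAA, TTC and GAA with any 2 bases between neighbours, was found. Hspd1 and Hspe1 were the only 2 of the 10 called members with an entry that had it. Their count of 2 therefore rests on 1 shared stretch, and it is set beside 0.51% of genes. The stretch is printed as read for Hspe1, with 2 overlapping matches, 1 per strand, in capitals.
Hspe1, chr1:55088039-55088096, plus strand: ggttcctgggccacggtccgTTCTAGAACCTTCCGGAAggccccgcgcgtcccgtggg

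Genes that injured neurons and glia switch on rose in part: 6 of 13 tested members were called higher (5 without either depleted stroke library). Maff, a small Maf transcription factor, rose from 1.34, 1.14 and 1.41 CPM to 9.94 and 11.6 CPM (3.05 ± 0.21, adjusted p = 3.8e-06), Cebpd, an acute phase transcription factor, from 1.82, 1.56 and 1.81 CPM to 20.9 and 21.5 CPM (3.61 ± 0.45, adjusted p = 0.00028) and Atf3, a stress transcription factor, from 1.18, 0.180 and 0.395 CPM to 8.34 and 7.49 CPM (3.71 ± 0.58, adjusted p = 0.00082). Fosl1, a partner of Jun in AP-1, had 0, 2 and 0 fragments in intact sham and 46 and 76 in depleted stroke, a count ratio of 81.6 (95% interval 22.1 to 681). Jun itself rose by 1.04 ± 0.22. The last of the 6, Ddit3, which encodes the stress factor CHOP, rose by 0.57 ± 0.19, and its call ended for Ddit3 (intact sham 2 or 3, depleted stroke 1 or 2, the 3 doubted libraries, adjusted p 0.062 to 0.22). The letters TGANTCA, a spelling of the AP-1 site, were found in the promoter of 1 of the 4 called members with an entry, against 7.82% of genes (both strands, same window). They are shown in capitals.
Ddit3, chr10:127290543-127290577, plus strand: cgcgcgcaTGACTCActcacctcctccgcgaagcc

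Targets of the damage sensor p53 rose in part. Of 13 tested members 6 were called higher and 1 lower, the same counts without either depleted stroke library, and the median was 0.52. Cdkn1a, which encodes the cell cycle inhibitor p21, stood at 18.3, 16.99 and 11.7 CPM in intact sham and 131 and 157 CPM in depleted stroke (3.20 ± 0.34, adjusted p = 0.00014). Depleted sham read 24.4, 32.8, 41.2 and 68.0 CPM and intact stroke 61.4, 73.2, 49.1 and 51.2 CPM, all below both depleted stroke libraries. Trp53inp1, a p53-induced nuclear protein, rose by 1.01 ± 0.19 and Plk2, a synaptic and stress kinase, by 0.62 ± 0.12. The RNA-binding gene Zmat3 fell from 122, 122 and 131 CPM to 83.7 and 81.7 CPM (-0.60 ± 0.11, adjusted p = 0.0021).

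Genes of the oxidative stress factor NRF2 and of iron handling were called higher in 7 of 12 members and lower in 1. Hmox1, the inducible heme oxygenase, rose from 6.12, 4.43 and 6.16 CPM to 55.9 and 60.4 CPM (3.38 ± 0.41, adjusted p = 0.00025), and Srxn1, sulfiredoxin, from 100.1, 119.8 and 117 CPM to 255 and 231 CPM (1.11 ± 0.12, adjusted p = 0.00015). The iron exporter gene Slc40a1 fell from 13.1, 13.6 and 12.1 CPM to 4.42 and 4.66 CPM (-1.51 ± 0.20, adjusted p = 0.0004). The higher count was 6 and 5 without depleted stroke 1 and 2.

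Glucocorticoid targets and metallothionein genes rose in 10 of 13 members, with none lower and a median of 1.06, and in 6 of 13 without either depleted stroke library. Mt2 and Mt1, zinc-binding metallothioneins, rose from 68.5, 47.1 and 64.4 CPM to 377 and 293 CPM (2.48 ± 0.23, adjusted p = 5.8e-05) and from 104, 109.9 and 115 CPM to 433 and 324 CPM (1.79 ± 0.18, adjusted p = 0.00011). Map3k6, a stress kinase, rose from 5.53, 7.24 and 7.51 CPM to 41.2 and 38.3 CPM (2.56 ± 0.37) and Pdk4, which holds back glucose oxidation, from 9.66, 13.4 and 9.60 CPM to 28.8 and 42.8 CPM (1.72 ± 0.25). The groups did not overlap in these 4 genes. For Mt2 stroke alone gave 1.69 and depletion alone 0.41, and depleted stroke exceeded intact stroke by 0.79 ± 0.21 (adjusted p = 0.02). The neuronal metallothionein gene Mt3 (0.93), Tsc22d3 (0.78) and Sult1a1 (0.39) were not called, with the adjusted p in brackets. Of 15 hypoxia and glycolysis genes 2 were called higher and 2 lower. Slc2a1, the glucose transporter of the blood-brain barrier, rose from 115, 144.6 and 119 CPM to 247 and 239 CPM (0.95 ± 0.16, adjusted p = 0.0013), and Vegfa, the endothelial growth factor, read 62.3, 41.5 and 53.5 CPM against 29.7 and 26.9 CPM (-0.89 ± 0.24). The hexokinase gene Hk1 changed by 0.53 ± 0.11 and the stress gene Ndrg1 by -0.65 ± 0.14. Calls ended for Vegfa (depleted stroke 1 or 2, adjusted p 0.055 to 0.1), Hk1 (depleted stroke 2, adjusted p 0.064), Ndrg1 (depleted stroke 2, adjusted p 0.077).

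Extracellular proteases and their inhibitors rose. Of 15 tested members 10 were called higher and none lower (10 and 9 without depleted stroke 1 and 2), with a median of 2.13. Adamts1, a proteoglycan-cleaving protease, stood at 9.55, 12.8 and 9.60 CPM in intact sham and 78.3 and 84.8 CPM in depleted stroke (2.94 ± 0.26, adjusted p = 4.9e-05). Its relative Adamts9 rose from 1.39, 1.62 and 1.86 CPM to 28.9 and 36.9 CPM (4.34 ± 0.54, adjusted p = 0.00027). Stromelysin 1, Mmp3, on chromosome 9 from 7445822 to 7455975, had no fragment in the 3 intact sham libraries and 90 and 245 in depleted stroke, at least 49.8-fold higher, while intact stroke libraries had 14, 127, 178 and 81. Of the plasminogen system, Plat, tissue plasminogen activator, rose from 26.6, 29.1 and 26.4 CPM to 56.0 and 55.5 CPM (1.03 ± 0.11, adjusted p = 0.00016), and Plaur, the urokinase receptor, from 1.45, 1.02 and 0.734 CPM to 9.44 and 8.46 CPM (3.06 ± 0.40, adjusted p = 0.00038). For Plat stroke alone gave 0.17 (adjusted p = 0.34) and depletion alone 0.12 (0.47) against the same controls.

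Of 13 collagen and fibroblast matrix genes 5 were called higher (4 without depleted stroke 1, 1 without depleted stroke 2, 3 without intact sham 1 or the 3 doubted libraries). Col4a1, a basement membrane collagen chain, rose from 86.3, 79.8 and 90.4 CPM to 188 and 197 CPM (1.17 ± 0.16, adjusted p = 0.00047) and kept its call in every setting. The crosslinking enzyme gene Lox (3.20 ± 0.64), Fbln2 (1.33 ± 0.32), the proteoglycan gene Dcn (1.63 ± 0.49) and Col4a2 (0.60 ± 0.19) were the others, and calls ended for Lox (depleted stroke 2, adjusted p 0.057), Fbln2 (depleted stroke 2, adjusted p 0.083), Dcn (intact sham 1, depleted stroke 2, the 3 doubted libraries, adjusted p 0.0527 to 0.21), Col4a2 (intact sham 1, 2 or 3, depleted stroke 1 or 2, the 3 doubted libraries, adjusted p 0.0523 to 0.13). The fibrillar collagen genes Col1a1 and Col3a1 read 3.87 and 5.82 CPM and 1.31 and 3.14 CPM in depleted stroke and were not called (adjusted p = 0.55 and 0.32). Of 13 endothelial identity genes 3 were called higher and 2 lower: Ly6c1 rose from 29.5, 34.8 and 25.8 CPM to 65.0 and 62.0 CPM (1.08 ± 0.15) and the junction gene Pecam1 from 21.9, 28.0 and 21.5 CPM to 39.9 and 44.1 CPM (0.82 ± 0.17), while Cldn5, the main claudin of the barrier, read 23.2, 29.97 and 22.5 CPM against 28.8 and 34.6 CPM (adjusted p = 0.095). The cadherin gene Cdh5 (0.55 ± 0.18), the angiopoietin receptor gene Tek (-1.23 ± 0.27) and the drug efflux pump gene Abcb1a (-0.56 ± 0.15) lost their calls in other fits: Cdh5 (intact sham 1 or 3, depleted stroke 1 or 2, the 3 doubted libraries, adjusted p 0.074 to 0.14), Tek (depleted stroke 1, adjusted p 0.058), Abcb1a (depleted stroke 2, adjusted p 0.12). The counts were 2 and 1 without either depleted stroke library, and 4 were lower in the fit of the 5 libraries alone.

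Of 12 genes of activated endothelium 7 were called higher and 1 lower (6 and 1 without depleted stroke 1, 4 and 0 without depleted stroke 2). Angpt2, the destabilising angiopoietin, rose from 0.590, 1.08 and 0.904 CPM to 7.83 and 8.30 CPM (3.23 ± 0.50, adjusted p = 0.00084). Of 11 mural cell genes 3 were called higher and 1 lower. Rgs5, a pericyte G protein regulator, fell from 127, 114 and 109.9 CPM to 57.7 and 73.1 CPM (-0.84 ± 0.17, adjusted p = 0.0032). The channel gene Kcnj8 (0.74 ± 0.18), the growth factor receptor gene Pdgfrb (0.45 ± 0.15) and the smooth muscle gene Cnn1 (1.45 ± 0.51) were higher, and this count of 3 was 0 without depleted stroke 1, 1 without depleted stroke 2, intact sham 1, intact sham 3 or the 3 doubted libraries. In single fits calls ended for Kcnj8 (depleted stroke 1, adjusted p 0.056), Pdgfrb (intact sham 1 or 3, depleted stroke 1 or 2, the 3 doubted libraries, adjusted p 0.0537 to 0.22), Cnn1 (intact sham 1, 2 or 3, depleted sham 2, intact stroke 3 or 4, depleted stroke 1 or 2, no filter on low counts, limma, the 3 doubted libraries, adjusted p 0.0506 to 0.16).

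Genes of the oligodendrocyte lineage fell. Of 14 myelin genes 7 were called lower and none higher, with a median of -0.47, and of 12 genes of oligodendrocyte precursors 7 were called lower and none higher, with a median of -0.40. Gpr17, a receptor of precursors that are about to form myelin, stood at 56.0, 50.8 and 56.1 CPM in intact sham, 38.9, 34.7, 32.2 and 31.0 CPM in depleted sham, 33.1, 26.2, 31.8 and 38.1 CPM in intact stroke and 10.8 and 12.1 CPM in depleted stroke. Both depleted stroke values lay below all 11 others, and the combined log2 change was -2.24 ± 0.15 (adjusted p = 3.8e-06). Olig1, a lineage transcription factor, fell from 76.2, 61.1 and 61.3 CPM to 38.3 and 40.0 CPM (-0.76 ± 0.12, adjusted p = 0.00086), and Cspg4, the NG2 proteoglycan, from 23.9, 22.8 and 24.1 CPM to 12.6 and 14.4 CPM (-0.81 ± 0.13, adjusted p = 0.00088). In mature cells, Aspa, which breaks down N-acetylaspartate, fell from 9.28, 15.6 and 8.25 CPM to 2.91 and 2.89 CPM (-1.92 ± 0.30, adjusted p = 0.00087) and the galactolipid synthase gene Ugt8a from 34.6, 28.7 and 26.0 CPM to 12.4 and 12.6 CPM (-1.25 ± 0.21, adjusted p = 0.0013). Mbp, a major myelin protein gene, read 433, 497 and 419 CPM against 353 and 314 CPM (adjusted p = 0.06) and the precursor marker Pdgfra 49.8, 52.3 and 49.8 CPM against 49.3 and 56.2 CPM (adjusted p = 0.7). Left-out depleted stroke libraries took the myelin count to 5 and 6 and the precursor count to 5 and 3, and limma called 4 precursor genes lower.

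Receptor, channel and vesicle genes of neurons fell in part. Of 18 glutamate and GABA receptor genes 11 were called lower and none higher (8 and 9 without depleted stroke 1 and 2), with a median of -0.40. Gria3, an AMPA receptor subunit, fell from 343, 362 and 377 CPM to 197 and 227 CPM (-0.77 ± 0.09, adjusted p = 0.00023) and Gria2, the subunit that limits calcium entry, from 786, 875 and 873 CPM to 579 and 653 CPM (-0.45 ± 0.08, adjusted p = 0.0014). The GABA-A receptor subunit gene Gabrd fell from 75.4, 98.5 and 80.5 CPM to 38.0 and 38.6 CPM (-1.15 ± 0.16, adjusted p = 0.0005). The groups did not overlap in these 3 genes. The NMDA receptor genes Grin1, Grin2a and Grin2b had adjusted p of 0.51, 0.63 and 0.92. Of 16 potassium channel genes 6 were called lower and 1 higher (5 and 0 without depleted stroke 1, 4 and 0 without depleted stroke 2). Kcnip2, a subunit that tunes A-type channels, fell from 114, 137 and 129 CPM to 64.1 and 66.5 CPM (-0.96 ± 0.11, adjusted p = 0.00015), and Kcnd2, the channel it binds, changed by -0.59 ± 0.09. Kcnt1, a sodium-activated channel, was the higher member (0.39 ± 0.13), with a call that ended for Kcnt1 (intact sham 1 or 3, depleted stroke 1 or 2, the 3 doubted libraries, adjusted p 0.063 to 0.13). Of 16 synaptic vesicle genes 7 were called lower and none higher (4 and 6 without depleted stroke 1 and 2). Stx1a, a SNARE protein of the presynaptic membrane, fell from 355, 292 and 333 CPM to 173 and 164.9 CPM (-0.95 ± 0.15, adjusted p = 0.001), while the calcium sensor gene Syt1 changed by -0.53 ± 0.09 and Snap25 by -0.39 ± 0.08.

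With all libraries, few markers of neuron classes were called higher. The counts of these short lists are set beside 16.5% higher and 15.2% lower over all tested genes, and the differences were not tested. Of 14 cortical excitatory genes 5 were called lower and 1 higher (2 and 1 without depleted stroke 1, 3 and 1 without depleted stroke 2), with 8 lower without intact stroke 4 and 3 without the 3 doubted libraries. The vesicular glutamate transporter gene Slc17a7 read 1534, 1375 and 1416 CPM against 1306 and 1356 CPM (adjusted p = 0.36). Neurod6 fell from 111, 71.7 and 103 CPM to 52.2 and 45.9 CPM (-0.96 ± 0.19, adjusted p = 0.0031), and its relative Neurod2 rose from 101, 91.6 and 92.4 CPM to 181 and 192 CPM (0.97 ± 0.17, adjusted p = 0.0015). Of 16 striatal genes 1 was called higher and 1 lower. Without intact sham 2, and without the 3 doubted libraries, 3 were higher and 2 lower, and by DESeq2 1 was higher and 3 lower. Limma called 2 higher, and 2 were lower without depleted sham 1 or intact stroke 4 and 0 without depleted stroke 2 or intact sham 3. The higher one, Ppp1r1b, encodes the dopamine-regulated phosphatase inhibitor DARPP-32 and overlaps a gene on the opposite strand; it read 68.3, 146.3 and 111 CPM in intact sham and 372 and 338 CPM in depleted stroke (1.71 ± 0.29, adjusted p = 0.0013), while the striatal genes Drd1 and Adora2a had adjusted p of 0.17 and 0.4. The lower one was the tachykinin gene Tac1 (-1.26 ± 0.39), whose call ended for Tac1 (intact sham 1 or 3, depleted stroke 2, the 5-library fit, adjusted p 0.061 to 0.22). Of 13 interneuron genes 4 were called lower (2 and 1 without depleted stroke 1 and 2). Pvalb, the calcium buffer of fast-spiking cells, fell from 61.0, 65.0 and 60.3 CPM to 43.8 and 46.7 CPM (-0.46 ± 0.09, adjusted p = 0.0028), while the GABA-synthesis gene Gad1 read 398, 431 and 429 CPM against 423 and 439 CPM (adjusted p = 0.64). Of 16 activity-induced immediate early genes 6 were called lower (2 and 0 without depleted stroke 1 and 2, 3 without intact sham 1 or 3, 10 in the fit of the 5 libraries alone). Egr1 read 491, 374 and 447 CPM against 205 and 209 CPM and Egr4 35.9, 29.9 and 30.8 CPM against 16.8 and 12.4 CPM, with calls that ended for Egr1 (depleted stroke 1 or 2, adjusted p 0.078 to 0.081), Egr4 (depleted stroke 2, adjusted p 0.13).

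Beyond the lists, the largest rises came from genes at or near 0 in intact sham. Mmp3 and Slc10a6 led those with at least 1 CPM in depleted stroke, followed by Igfbp1, a binding protein of insulin-like growth factors, with 33 and 41 fragments against 0 (at least 10.98-fold), Alox15, a lipoxygenase, with 15 and 36 against 0 (at least 7.58-fold), and the protease gene Prss38, with 17 and 25 against 0 (at least 6.24-fold). Tnfsf8, the CD30 ligand, had 72 and 54 fragments against 0, 1 and 0, a ratio of 168.6 (95% interval 29.7 to 6710.4), and Duox2, which makes hydrogen peroxide, 156 and 151 against 0, 0 and 2, a ratio of 205 (95% interval 56.4 to 1703). The uncharacterised gene 4933438B17Rik was at least 8.32-fold higher, and Gm14278 is described below. Gm839, C330011M18Rik and Duoxa1, also among the 12, had no fragment in intact sham. Calls ended for Gm839 (depleted stroke 2, adjusted p 0.056), C330011M18Rik (intact sham 1, 2 or 3, intact stroke 3, depleted stroke 1 or 2, DESeq2, no filter on low counts, adjusted p 0.0507 to 0.19), Duoxa1 (intact sham 1 or 3, depleted stroke 1 or 2, the 3 doubted libraries, adjusted p 0.057 to 0.085). Depleted sham held part of these transcripts too. It read 0.162, 1.5002, 0.670 and 1.03 CPM for Igfbp1, 0.0541, 1.0001, 1.16 and 0.969 CPM for Alox15 and 0.0541, 15.5, 6.58 and 6.56 CPM for Duox2, while intact stroke read 0.276, 0.192, 0.0588 and 0.242 CPM for Duox2. Depleted sham 1 was the lowest of its group in all 3.

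Among genes with at least 30 CPM, A2m, the broad protease inhibitor alpha-2-macroglobulin, rose most, from 0.536, 1.196 and 1.81 CPM to 29.6 and 41.9 CPM (4.92 ± 0.46, adjusted p = 7.4e-05), followed by Lcn2, Hspa1b, Adamts9, Hspa1a, Hspa1l, Serpina3n, Hmox1, Ctla2a, Gfap, Cdkn1a and Osmr. Ctla2a, a cysteine protease inhibitor gene that overlaps a close copy, rose from 2.146, 7.96 and 3.33 CPM to 32.7 and 54.99 CPM (3.30 ± 0.53, adjusted p = 0.00094). The largest falls at that level were Csf1r and Ctss of the microglial list, then Itm2a, a membrane protein gene, from 37.7, 42.6 and 35.9 CPM to 9.04 and 6.73 CPM (-2.29 ± 0.39, adjusted p = 0.0014), and Gpr17. Cbln2, a synapse organiser, fell from 37.7, 38.3 and 40.8 CPM to 9.89 and 10.4 CPM (-1.94 ± 0.25, adjusted p = 0.00035) and the zinc finger gene Zfp950 from 64.3, 56.1 and 64.1 CPM to 21.8 and 18.4 CPM (-1.61 ± 0.18, adjusted p = 0.00016). Pltp, a phospholipid transfer protein gene, Mpeg1 and Nrep were also among the 12, with C1qa and C1qb. Calls ended for Pltp (depleted stroke 2, adjusted p 0.06), Mpeg1 (depleted stroke 1 or 2, adjusted p 0.062 to 0.099), Nrep (depleted stroke 2, adjusted p 0.06). Below 30 CPM the falls also held Gm3693, from 3.97, 1.68 and 3.16 CPM to 0.151 and 0.304 CPM (-3.66 ± 0.60), and Lenep, which lies in an exon of Flad1 on the same strand and had 41, 37 and 51 fragments against 1 and 1; its call ended for Lenep (depleted stroke 1 or 2, adjusted p 0.089 to 0.098).

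Whether both insults together gave more or less than the sum of each alone was tested as an interaction on the log2 scale. Of 16940 genes 8 were called (0.0472%), 1 above the sum and 7 below it (0.0413%), against 1647 genes at an unadjusted p under 0.05. DESeq2 called 114. Yipf6, which encodes a Golgi membrane protein, was the gene whose interaction call held in every setting run. It read 43.9, 44.1 and 44.6 CPM in intact sham, 45.5, 38.8, 40.9 and 45.03 CPM in depleted sham, 49.1, 50.4, 50.7 and 51.3 CPM in intact stroke and 18.3 and 15.7 CPM in depleted stroke, an interaction of -1.51 ± 0.12 (adjusted p = 0.00014). Only the depleted stroke libraries were low.

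The other genes below the sum had their highest levels in intact stroke. Lpl, lipoprotein lipase, read 29.8, 32.3, 40.2 and 28.9 CPM in intact stroke and 8.24 and 7.39 CPM in depleted stroke, against 15.1, 9.45 and 9.83 CPM in intact sham and 12.1, 16.7, 10.3 and 10.3 CPM in depleted sham (interaction -2.18 ± 0.31, adjusted p = 0.028). Cd180, a Toll-like receptor homologue, read 13.2, 8.06, 17.3 and 11.9 CPM in intact stroke, 0.552 and 0.911 CPM in depleted stroke and 1.88, 1.91 and 2.03 CPM in intact sham (interaction -3.06 ± 0.44, adjusted p = 0.028). Tlr13, a receptor for bacterial ribosomal RNA, read 8.55, 9.93, 10.1 and 8.29 CPM in intact stroke and 1.61 and 2.03 CPM in depleted stroke (-1.64 ± 0.25, adjusted p = 0.036). All 4 intact stroke libraries lay above all others for these genes. The inhibitory receptor gene Lilrb4a read 4.97, 8.01, 10.8 and 6.84 CPM and 3.21 and 2.89 CPM in the stroke groups, 1.51, 1.73, 1.58 and 0.912 CPM in depleted sham and 0.161, 0.180 and 0.282 CPM in intact sham (-4.08 ± 0.51, adjusted p = 0.019). Its close copy Lilr4b, with which reads can be confused, and the chemokine gene Ccl12 were the remaining 2, at adjusted p of 0.028 and 0.028; with 0, 2 and 0 fragments of Lilr4b and 1, 3 and 0 of Ccl12 in the intact sham libraries, the size of their interaction is not a measured fold. Lingo3, of the family of a myelin-linked receptor partner, was above the sum, at 52.2 and 53.1 CPM in depleted stroke against 28.3, 26.3 and 27.9 CPM in intact sham (0.80 ± 0.12, adjusted p = 0.04). The 7 calls other than Yipf6 each ended when depleted stroke 1, depleted stroke 2 or the 3 doubted libraries were left out, with adjusted p between 0.0648 and 0.181. The total was 2 and 3 without intact sham 1 and 3, 15, 5 and 1 without depleted sham 1, 2 and 3, and 3 and 5 without depleted stroke 1 and 2.

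**Figure D5:**
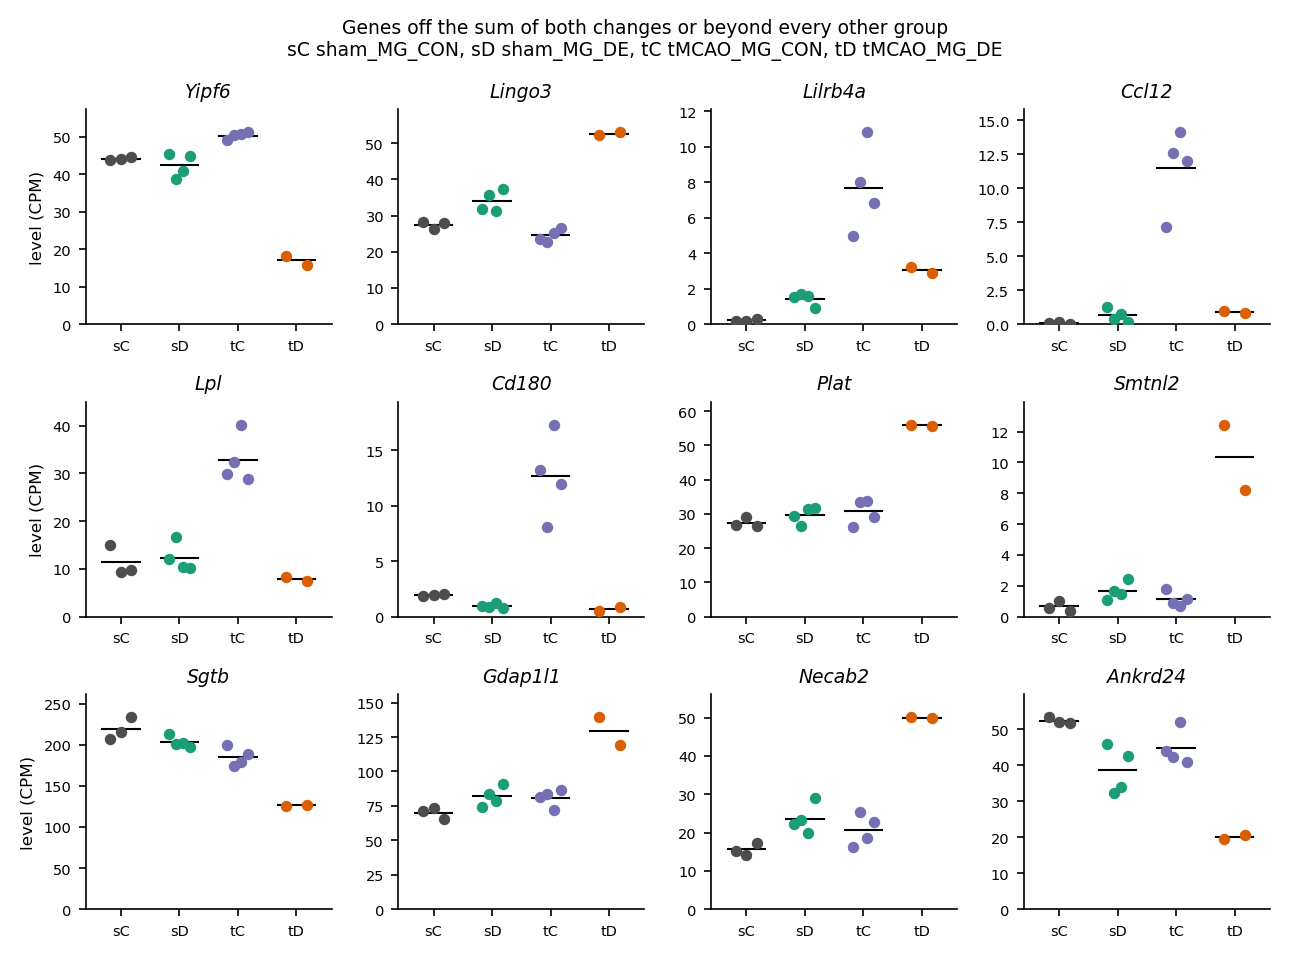
Per-library CPM of 12 genes from the tests of the sum and of separation, in the 4 groups (sC, intact sham; sD, depleted sham; tC, intact stroke; tD, depleted stroke); each point is a library and each line a group mean, with the axis starting at 0. Yipf6 is low and Plat and Lingo3 are high in tD only, while Lilrb4a, Ccl12, Lpl and Cd180 are highest in tC.

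Genes at which depleted stroke lay beyond each of the other 3 groups in the same direction were sought with the largest of the 3 p-values per gene. There were 79 (0.466%), 35 higher and 44 lower, and 562 by DESeq2. Gm14278, an uncharacterised gene, had 57 and 62 fragments in depleted stroke and at most 1 in any of the other 11 libraries. Gpr17 and Yipf6 kept this call in every setting. Necab2, a neuronal calcium-binding protein gene, read 50.1 and 49.9 CPM in depleted stroke against 15.3, 14.1 and 17.3 CPM in intact sham, with the highest of the other 11 libraries at 29.0 CPM, and Smtnl2, a smoothelin-like gene, 12.5 and 8.20 CPM against 0.590, 1.02 and 0.395 CPM. Sgtb, a small co-chaperone of neurons, read 126 and 127 CPM against 207, 216 and 234 CPM, Ankrd24 19.4 and 20.7 CPM against 53.4, 51.9 and 51.7 CPM and Cyb5d2 8.19 and 8.20 CPM against 12.7, 13.5 and 14.97 CPM, all lower in both depleted stroke libraries than anywhere else. Gdap1l1 read 139.5 and 119 CPM against 71.2, 73.6 and 65.6 CPM, and RP24-363O21.3 19.9 and 18.3 CPM against 38.6, 42.3 and 44.7 CPM. Plat and Lingo3, given above, completed the 12 with the smallest adjusted p. Besides Gm14278, Gpr17 and Yipf6, these calls ended without depleted stroke 1 (9 genes, adjusted p 0.0751 to 0.149) and, but for Smtnl2, without depleted stroke 2 (8 genes, adjusted p 0.0564 to 0.173). The total of 79 became 7 and 9 without depleted stroke 1 and 2, 46 and 20 without intact sham 1 and 3, 42 and 31 without depleted sham 2 and 3, 27 and 21 without intact stroke 3 and 4, and 3 without the 3 doubted libraries.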

How the data were processed

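Each of 4 deposited tables, 1 per group, gave gene-level read counts and FPKM per library, as the authors deposited them and per the file headers; FPKM is a count divided by gene length and library size. The submitters' processing notes name Cufflinks 2.1.1, Cuffdiff and mm10; the aligner, annotation and strand setting were not given in the sources used here. The authors' counts were analysed for the 21056 genes in all 4 tables, after leaving out names turned into dates and summing repeated names. FPKM served 2 alternatives on log2(FPKM + 1) and log2(FPKM + 0.1).

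In R 4.3.3, edgeR 4.0.16 (filterByExpr, trimmed mean of M-values, quasi-likelihood F test, 1 model of 4 group means over 13 libraries, 9 residual degrees of freedom, biological coefficient of variation 15.2%) gave two-sided p-values, adjusted by Benjamini-Hochberg over 16940 genes; 4116 were filtered out. The steps were tested on simulated data. The alternatives were DESeq2 1.42.0, limma 3.58.1, other scaling and filters, fewer libraries and a replicate block. Members and gene lists were chosen with earlier results of these data known. Named were the genes of the axis in the title, the 12 largest rises and falls above 1 and 30 CPM, the genes of smallest adjusted p in the 2 tests beyond the sum, and up to 4 members per list by adjusted p, with others where a count needed them; Nfkbia, Il6, Nfkb2, Rsad2 and Ifit3 are named for their printed promoters, and defining markers without a call (Ttr, Cldn5, Mbp, Pdgfra, Gad1, Drd1 and others like them) were added after their values were seen. Some genes these rules select are not reported here. Intervals and floors cover counting error only.

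Counting may have split fragments between overlapping genes. Of the genes named, Adora3, Lenep, Ctla2a, Spp1, Lilrb4a, Lilr4b, Fpr2, Itgam, Aldh1l1, Gria2, Gria3, Hspa8, Pdgfra, Col3a1 and Top2a overlap a gene model on their own strand in GENCODE vM21, and Csf1r, Cx3cr1, Gpr17, Hspa1a, Hspd1, Hspe1, Icam1, Cdkn1a, Cebpd, Adamts9, Ppp1r1b, Slc2a1, Mt2, Olig1 and P2ry12, among others, overlap 1 on the other strand, so these levels are uncertain.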

Additional observations from a re-analysis of the deposited data

Results flagged for a closer look

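Of 63 groups of 4 libraries tested for a library apart from the rest (32 genes), 3 were flagged, and chance flags about 1 in 20. All 3 flags had fragments in 1 library only, which this test flags at any level, so that rate does not apply to them. Cxcr2 was at 0.183 CPM in depleted sham 3 and at 0 in the other 3 libraries of that group. Mpo was at 0.221 CPM in intact stroke 1 and at 0 in the other 3, and Gm14278 at 0.0552 CPM in intact stroke 1 and at 0 in the other 3.

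The effect of depletion differed between occluded and sham brains in 8 genes by the interaction test, below the sum of the single log2 changes in Yipf6 (-1.51), Lilrb4a (-4.08), Cd180 (-3.06), Ccl12 (-6.65), Lilr4b (-6.41), Lpl (-2.18) and Tlr13 (-1.64) and above it in Lingo3 (0.80). Ccl12 and Lilr4b rest on few fragments in intact sham, and their sizes depend on the prior count.

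Genes listed in the occlusion tables and not in the sham tables used here did not enter the main comparison, and no fold is given for them. There were 1052 such genes. Another 1002 were listed in the sham tables only, with up to 770 fragments in a library, and are not shown. With missing genes of either kind set to 0, 5378 genes were called, against 5370. Shown are genes of the occlusion tables only with at least 15 fragments in both depleted stroke libraries, each above every intact stroke library. That depleted stroke is the higher group in them follows from this rule. Depleted stroke 1 and 2 had 78 and 66 fragments of Fga, a fibrinogen chain, against 1, 26, 4 and 5 in intact stroke. They had 35 and 28 of Serpina3m against 5, 25, 5 and 12, 17 and 18 of Csf3, the granulocyte colony-stimulating factor, against 2, 16, 4 and 1, and 15 and 16 of Serpina3f against 0, 7, 8 and 0. Intact stroke 2 was the highest of its group in 3 of these 4 genes.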

How the results depend on the processing

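The combined count of 5370 ran from 2324 to 5918 over fits without a library (higher 1246 to 3104, lower 1078 to 2814), and DESeq2, both limma fits, other scaling, no filter and the replicate block stayed within 1.5 times of it; the lowest values came without depleted stroke 2, where 1 library stands for the group. The count of at least 2-fold changes was 243 higher and 79 lower with limma on log2(FPKM + 1), which shrinks low genes. Without single libraries stroke alone gave 564 to 1814, depletion alone 591 to 3725, depletion within occluded brains 346 to 3873, stroke after depletion 453 to 2096, the interaction 1 to 15 and separation from all groups 0.0413% to 0.62% of the tested genes (0.466% with all). Without the 3 doubted libraries, an alternative chosen after seeing the data, these were 769, 136, 1716, 1296, 1 and 0.0177%. With only the libraries of the compared groups depletion alone gave 645 and stroke after depletion 1137. The interaction was called in 114 genes by DESeq2 and in 32 and 23 by limma with 1 and 0.1 added, and separation in 3.32%, 0.998% and 0.785%. Replicate numbers are in the titles but same-numbered libraries did not deviate together (r from -0.064 to 0.106), so they share a number only; with a replicate block the combined comparison called 4579 genes (4386 shared), depletion alone 823, stroke after depletion 1341, the interaction 2 and separation 0.0531%. S100a9 reversed, from -0.64 to 2.54 (adjusted p = 0.0451) without the 3 doubted libraries. Causes were not tested. Of 296 called genes named or listed, 171 lost their call in none of 23 settings and 125 lost it in at least 1. With the replicate block 25 lost it, and no call reversed in any setting. Of these settings 1 repeated the edgeR fit unchanged, and a fit without an adjusted p for a gene was not counted as a loss. Table depth limits genes under about 1 CPM.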

Other observations

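Transcripts known mainly from tissues outside the brain were higher in depleted stroke. This list of 11 tissue-restricted genes was picked on these libraries in earlier work, so its direction is not independent evidence. Of its members 10 were called higher and none lower (10 and 8 without depleted stroke 1 and 2), with a median log2 change of 4.81, or 4.72 with genes near 0 in intact sham at their bounds. Loxhd1, a hair cell stereocilia gene, read 0.268, 0.180 and 0.226 CPM in intact sham and 13.1 and 11.2 CPM in depleted stroke (5.71 ± 0.81, adjusted p = 0.00051). Gucy2c, an intestinal guanylate cyclase, read 0, 0.299 and 0.0565 CPM and 6.03 and 5.62 CPM (5.60 ± 0.93), and Pde6b, a photoreceptor phosphodiesterase, 0.161, 0.598 and 0.452 CPM and 11.2 and 11.4 CPM (4.81 ± 0.80). Depletion alone gave 5.58, 5.45 and 4.25 for these genes against the same controls. Depleted sham read 1.78, 19.6, 9.57 and 13.2 CPM of Loxhd1, with depleted sham 1 lowest, and depleted stroke differed from depleted sham by 0.14 ± 0.53 (adjusted p = 0.9).

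Clock and cholesterol genes were called at about the share of all tested genes (31.7%). Of 16 clock genes 4 were called higher and 1 lower in the combined comparison (2 and 0 without depleted stroke 1, 0 and 0 without depleted stroke 2), against 10 higher in depletion alone. The higher count was 2 without intact sham 1, intact sham 3 or the 3 doubted libraries, 8 without depleted sham 1, 7 without depleted sham 2 and 8 in the fit of the 5 libraries alone. The repressor gene Nr1d1 read 136, 167.98 and 190.2 CPM in intact sham and 382 and 458 CPM in depleted stroke (1.35 ± 0.34), and the period gene Per2 101, 67.1 and 99.97 CPM and 58.2 and 47.1 CPM (-0.77 ± 0.23). The cryptochrome genes Cry2 (0.62 ± 0.15) and Cry1 (0.86 ± 0.26) and Per1 (0.74 ± 0.25) were the other higher members. Calls ended for Nr1d1 (depleted stroke 2, adjusted p 0.077), Per2 (intact sham 1 or 3, depleted stroke 1 or 2, adjusted p 0.056 to 0.18), Cry2 (depleted stroke 2, adjusted p 0.085), Cry1 (intact sham 1 or 3, depleted stroke 1 or 2, the 3 doubted libraries, adjusted p 0.057 to 0.11), Per1 (intact sham 1 or 3, depleted sham 4, intact stroke 2, depleted stroke 1 or 2, the 3 doubted libraries, adjusted p 0.0501 to 0.26). The labels state no hour of sampling. Of 18 cholesterol synthesis genes 4 were called lower and 2 higher, and none lower without either depleted stroke library. The lower count was 1 without intact sham 1 or 3 and 7 in the fit of the 5 libraries alone, and the higher count was 0 without depleted stroke 1.

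Cell cycle genes were called higher in 3 of 14 members, near the share of all tested genes called higher (16.5%). The 3 were Ccna2, cyclin A2, from 2.63, 3.35 and 2.49 CPM to 5.02 and 8.25 CPM (1.23 ± 0.22, adjusted p = 0.0018), and the replication helicase genes Mcm2 (0.82 ± 0.21) and Mcm6 (0.59 ± 0.20). Mki67 had an adjusted p of 0.094 and Top2a of 0.7. Calls ended for Mcm2 (depleted stroke 1, adjusted p 0.086), Mcm6 (intact sham 1 or 3, depleted stroke 1 or 2, limma, the 3 doubted libraries, adjusted p 0.0528 to 0.15), and the count was 1 without depleted stroke 1. Of 15 nuclear genes of the respiratory chain 1 was called, Ndufs4, which was lower (-0.28 ± 0.09). The call ended for Ndufs4 (intact sham 1, 2 or 3, depleted stroke 1 or 2, limma, the 3 doubted libraries, adjusted p 0.0538 to 0.17).

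The combined log2 change had a weak relation to base composition: with genes split into 5 equal groups by rising GC content the median was -0.066, -0.009, 0.037, 0.056 and 0.063.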
